A study of Homo sapiens with 4 samples.

Results

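The 10 genes described here encode the 3 TGF-beta ligands (TGFB1, TGFB2 and TGFB3), the signalling receptors TGFBR1 and TGFBR2, the co-receptor TGFBR3 (betaglycan), the signal transducers SMAD2, SMAD3 and SMAD4, and PMEPA1, a membrane protein that is induced by TGF-beta and dampens the signal. They were chosen by gene symbol, and all 10 of 10 were found among the 26518 genes of the deposited table by their Ensembl identifiers. RNA-seq had been performed on MDA-MB-468, an established cell line from a human triple-negative breast cancer. The cells carried either a control lentiviral vector (pGIPZ-CTRL, shControl, 2 libraries) or a SASH1-directed shRNA lentivirus (shSASH1, 2 libraries), and stable cells of both kinds had been selected with puromycin. SASH1 is a signalling adaptor that carries an SH3 and SAM domains. The labels do not say how many hairpins or clones were used, nor whether the paired libraries of each group stem from independent cultures. The p-values therefore reflect the spread among these 4 libraries alone, and that spread may be technical. The comparison asked how SASH1 depletion alters the transcriptome, here the transcripts of the TGF-beta pathway.

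TGF-beta ligands are secreted in a latent form, held by their own propeptide and by latent TGF-beta binding proteins, and must be released before they can bind. An active ligand brings together TGFBR2, a constitutively active kinase, and TGFBR1, which then phosphorylates SMAD2 and SMAD3. These join the common partner SMAD4 and enter the nucleus to regulate target genes. In normal breast epithelium the pathway restrains growth. In breast cancer it is also known for promoting invasion, and SMAD4 is reported as deleted in MDA-MB-468. The data are RNA levels, and neither protein, secreted ligand nor SMAD phosphorylation was measured.

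The libraries matched their labels in the depleted gene, and epithelial markers were high in all 4. SASH1 was at 14.99 and 13.0 TPM in shControl and at 3.65 and 4.01 TPM in shSASH1 (log2 change -1.63 ± 0.13 SE, limma adjusted p = 0.00391). TPM expresses abundance per gene length as a share of the library, and 1 TPM was added before taking log2, which understates the change of low genes. The epithelial markers EPCAM, CDH1, KRT5, KRT8, KRT18 and KRT19 summed to between 4563 and 5987 TPM in the 4 libraries, PGR was at 0 in 3 libraries and at 0.0248 TPM in the other, and ESR1 lay between 2.29 and 3.64 TPM. Of the other 2 receptors in the breast marker list, which are kinases of the same family, EGFR rose from 1169 and 1075 to 2191 and 2203 TPM (log2 change 0.97, limma adjusted p = 0.00340). ERBB2 fell from 68.4 and 70.3 to 28.98 and 38.3 TPM (-1.04, limma adjusted p = 0.0106). The 7 fibroblast markers summed to between 6.42 and 11.5 TPM, nearly all of it COL1A1, with LUM and COL1A2 listed at 0 in every library. The 5 leukocyte markers summed to 33.4, 39.9, 33.4 and 96.6 TPM, nearly all of it CD14, with PTPRC, CD3E, CD68 and MS4A1 each under 0.2 TPM. The 4 endothelial markers summed to between 3.08 and 3.96 TPM. Reads rebuilt from the TPM values came to between 19527723 and 24361443 per library. The shSASH1 libraries differed more from each other than the shControl libraries did (median SD 0.126 against 0.0507 log2 units).

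Of the 10 genes, 9 averaged 1 TPM or more over the 4 libraries and entered the test, and 3 rose at an adjusted p under 0.05: the ligand TGFB2, the receptor TGFBR1 and the transducer SMAD3. Each was close to 2-fold higher in shSASH1 (2.13-fold, 1.83-fold and 2.002-fold by ratio of means). In bulk RNA, more cells that express a gene and more RNA per cell cannot be told apart. None of the 9 fell by that test, though 2 of them, TGFB1 and TGFB3, had an unadjusted limma p under 0.05 and were called lower by limma-voom on rebuilt reads. TGFB1 and TGFB3 had lower values in both shSASH1 libraries and missed the threshold, TGFBR2, TGFBR3, SMAD2 and PMEPA1 did not pass, and SMAD4 was under 0.4 TPM in every library and was not tested. Across all 14458 tested genes 32.0% passed, 18.8% higher and 13.3% lower, so 3 of 9 is near the background share. The median log2 change was 0.06 over the 9 genes and 0.06 over all tested genes. The median size of change without regard to direction was 0.72 over the 9 and 0.31 over all. The calls of the 3 genes held in every setting that kept all 4 libraries. Without a shControl library they did not hold, nor did any other call of the table. Calls made without a shSASH1 library are not relied on.

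**Figure D1:**
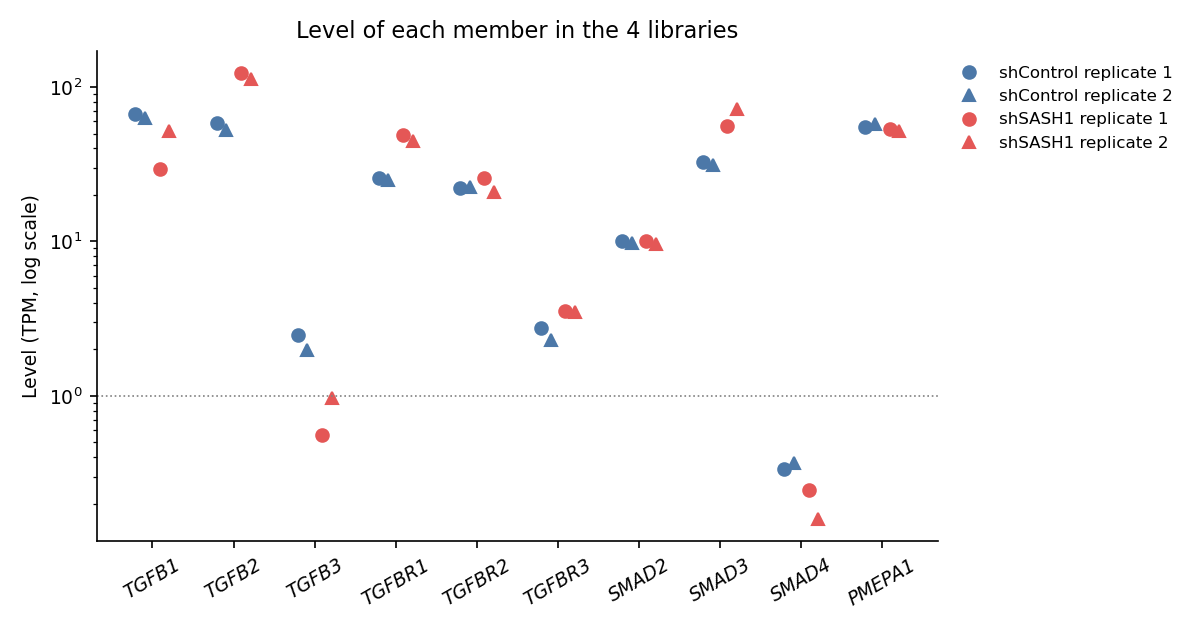
Level of each of the 10 genes (TPM, log axis) in the 2 shControl (blue) and 2 shSASH1 (red) libraries, with circles for replicate 1, triangles for replicate 2 and a dotted line at 1 TPM. TGFB2, TGFBR1 and SMAD3 lie higher in both shSASH1 libraries, TGFB1 and TGFB3 lower, and SMAD4 lies under the line in all 4.

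Of the 10 members' promoter windows, 3 held an E-box, and those of TGFB2, SMAD3 and TGFB3 are shown because they are these 3. They were picked after the motifs had been counted and cover genes that moved in opposite directions, since TGFB2 and SMAD3 rose while TGFB3 was lower in both shSASH1 libraries. In their windows, TGFBR1, which also rose, and TGFB1, which was also lower, had no E-box. Each is the 250 bases before the first transcript start listed by RefSeq (GRCh38.p14), 5′ to 3′ on the gene's strand, at chr1:218345086-218345335 (plus) for TGFB2, chr15:67065352-67065601 (plus) for SMAD3 and chr14:75983012-75983261 (minus) for TGFB3. Capitals mark letter matches, on either strand, to an E-box (CACGTG), a TEAD motif (GGAATG), an AP-1 motif (TGANTCA), a CRE/ATF motif (TGACGTCA) or a palindromic SMAD element (GTCTAGAC).
TGFB2: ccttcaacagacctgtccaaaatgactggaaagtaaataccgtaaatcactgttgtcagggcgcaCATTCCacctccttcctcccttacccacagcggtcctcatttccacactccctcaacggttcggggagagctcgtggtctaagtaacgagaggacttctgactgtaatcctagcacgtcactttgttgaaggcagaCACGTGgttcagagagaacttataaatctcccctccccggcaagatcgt
SMAD3: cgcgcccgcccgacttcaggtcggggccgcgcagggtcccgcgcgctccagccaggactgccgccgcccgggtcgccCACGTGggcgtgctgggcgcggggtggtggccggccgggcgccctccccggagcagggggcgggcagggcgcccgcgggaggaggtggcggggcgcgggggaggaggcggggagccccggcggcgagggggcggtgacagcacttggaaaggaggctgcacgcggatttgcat
TGFB3: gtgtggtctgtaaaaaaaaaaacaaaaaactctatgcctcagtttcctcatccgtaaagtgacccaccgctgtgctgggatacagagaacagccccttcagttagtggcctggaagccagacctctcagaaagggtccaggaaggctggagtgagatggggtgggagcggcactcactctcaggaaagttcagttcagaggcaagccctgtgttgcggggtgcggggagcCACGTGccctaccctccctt
The E-box, present once in each of the 3 by their choice, is the site of basic helix-loop-helix factors such as USF and MYC. The stretch of TGFB2 also held 1 TEAD motif, read on the other strand as CATTCC. An E-box was present in 6.49% of the 27305 RefSeq windows of the same length, and a TEAD motif in 11.9% of them and in 1 of the 10 members' windows. With 10 windows and several motifs searched, nothing is read from these counts. The AP-1, CRE/ATF and SMAD letters were in none of the 10 members' windows, against 6.60%, 1.77% and 0.176% of all windows. The stretches differed in base composition, with 50.4% G or C in TGFB2, 54.8% in TGFB3 and 80.8% in SMAD3. GGGCGG, a motif of SP1 and KLF factors, was found 4 times in SMAD3 and 6 times in the window of TGFB1, and in neither TGFB2 nor TGFB3. It was present in 5 of the 10 members' windows and in 42.3% of all windows. The windows of TGFBR1, TGFBR2 and PMEPA1 held none of the 6 motifs. RefSeq lists 8 start sites for TGFBR1, 5 for SMAD3, 4 for PMEPA1 and 2 each for TGFB3, TGFBR2 and SMAD2. Only the window of the first was searched, so a motif absent there may lie at another start. The table gives 1 value per gene, so the start in use was not measured. A letter match describes the sequence and shows no binding.

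Among the ligands, TGFB2 rose while TGFB1 and TGFB3 were lower in shSASH1, and TGFB2 went from the second to the most abundant of the 3. TGFB2 (chromosome 1, 218346235 to 218444619, hg38, plus strand), the isoform that needs the co-receptor most for binding, was at 58.1 and 52.8 TPM in shControl and at 123 and 113 TPM in shSASH1. The groups did not overlap, and each pair was close together. The mean rose from 55.4 ± 3.75 to 118 ± 7.22 TPM (SD, n = 2 per group), a log2 change of 1.08 ± 0.08 (SE) with limma adjusted p = 0.00344. This change was larger in size than that of 90.8% of tested genes. The noncoding transcript TGFB2-OT1, which shares 1371 exon bases with TGFB2 on the same strand, was listed at 0 in all 4 libraries.

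TGFB1 (chromosome 19, 41301587 to 41353911, minus strand), the most widely expressed isoform, was at 66.8 and 63.4 TPM in shControl and at 29.6 and 51.7 TPM in shSASH1. Both shSASH1 values lay under both control values, but the shSASH1 pair differed by 0.78 log2 units. The mean was 65.1 ± 2.36 TPM in shControl and 40.6 ± 15.6 TPM in shSASH1 (SD, n = 2), with a log2 change of -0.72 ± 0.27 and limma adjusted p = 0.105. Without shSASH1 replicate 1 the log2 change was -0.33, and without shSASH1 replicate 2 it was -1.11, so its size depends on 1 library. Those fits hold 1 shSASH1 library each and take their spread from the closer shControl pair alone, so no call is read from them. Of its exon bases, 6.64% are shared with HNRNPUL1 on the opposite strand, which was at 297 to 342 TPM, and without strand information reads of the shared stretch cannot be told apart.

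TGFB3 (chromosome 14, 75958099 to 75982991, minus strand), the third isoform, was at 2.46 and 1.99 TPM in shControl and at 0.558 and 0.971 TPM in shSASH1. These values rest on 71, 67, 18 and 25 rebuilt reads. The groups did not overlap, and the ratio of means was 2.91-fold lower in shSASH1. The log2 change was -0.88 ± 0.24, with limma adjusted p = 0.0523, just outside the threshold. It passed in several other settings, among them limma-voom on rebuilt reads (log2 change -1.64, adjusted p = 0.0148) and median-of-ratios scaling (-0.91, adjusted p = 0.0442).

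As a share of the summed ligand TPM, TGFB2 made up 45.6% and 44.7% in shControl and 80.3% and 68.2% in shSASH1. TGFB1 made up 52.4% and 53.7%, then 19.3% and 31.2%. The TGFB2 to TGFB1 ratio was 0.870 and 0.832 in shControl and 4.16 and 2.19 in shSASH1, without overlap. With 2 libraries on each side, the smallest two-sided p of an exact permutation test is 0.3333, so these shares are a description. Ligand transcripts summed to 127 and 118 TPM in shControl and to 153 and 166 TPM in shSASH1. TGFB2 thus rose by more TPM than the other 2 ligands lost.

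**Figure D2:**
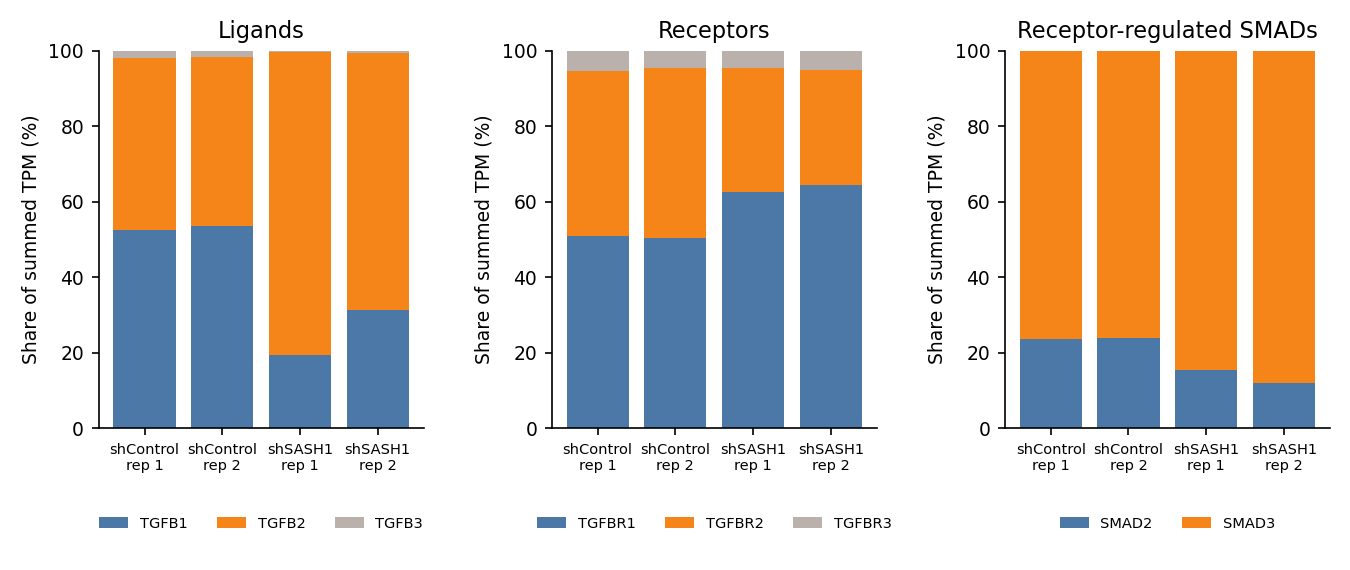
Share of the summed TPM (percent) taken by each ligand, each receptor and each receptor-regulated SMAD in the 4 libraries, as stacked bars that start at 0. The TGFB2 share is 45.6% and 44.7% in shControl and 80.3% and 68.2% in shSASH1, and the TGFBR1 share goes from 50.9% and 50.4% to 62.5% and 64.4%.

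Among the receptors, the type I receptor rose and the type II receptor did not. TGFBR1 (chromosome 9, 99104038 to 99154192, plus strand), the kinase that phosphorylates SMAD2 and SMAD3, was at 25.7 and 25.2 TPM in shControl and at 48.9 and 44.5 TPM in shSASH1. The groups stood well apart, with a mean of 25.5 ± 0.418 TPM against 46.7 ± 3.12 TPM (SD, n = 2). The log2 change was 0.85 ± 0.08 with limma adjusted p = 0.00501. TGFBR2 (chromosome 3, 30606502 to 30694142, plus strand), which binds the ligand and activates TGFBR1, was at 22.0 and 22.4 TPM in shControl and at 25.8 and 21.0 TPM in shSASH1. Its groups overlapped, and the log2 change was 0.06 ± 0.12 (limma adjusted p = 0.713). Its sign turned under quantile normalization, the length and GC correction and centring on chromosome windows, each with a change under 0.04 in size, and without shSASH1 replicate 1 (-0.078). TGFBR3 (chromosome 1, 91680343 to 91906335, minus strand), which presents ligand to TGFBR2, was at 2.76 and 2.29 TPM in shControl and at 3.54 and 3.52 TPM in shSASH1. The groups did not overlap, and the log2 change of 0.36 ± 0.17 did not pass (limma adjusted p = 0.164).

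Per library, the TGFBR1 to TGFBR2 ratio was 1.17 and 1.12 in shControl and 1.90 and 2.12 in shSASH1. The summed receptor level was 50.5 and 49.9 TPM in shControl and 78.2 and 69.0 TPM in shSASH1, and TGFBR1 took most of the difference. TGFBR3 stayed the least abundant receptor in every library, at 4.52% to 5.47% of the sum.

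Among the SMADs, SMAD3 rose, SMAD2 did not pass and SMAD4 was near 0 in both groups. SMAD3 (chromosome 15, 67063763 to 67195195, plus strand), the transducer that binds DNA directly, was at 32.7 and 31.2 TPM in shControl and at 56.2 and 71.8 TPM in shSASH1. All shSASH1 values lay above all control values, and the shSASH1 pair differed by 0.35 log2 units. The mean went from 32.0 ± 1.12 to 64.0 ± 11.03 TPM (SD, n = 2), with a log2 change of 0.97 ± 0.13 and limma adjusted p = 0.0104. SMAD2 (chromosome 18, 47808957 to 47931146, minus strand), its close relative, was at 10.1 and 9.74 TPM in shControl and at 10.1 and 9.65 TPM in shSASH1. Its groups overlapped, and the log2 change was -0.01 ± 0.10 (limma adjusted p = 0.974). With 2 libraries a group, that standard error limits how small a change could be seen.

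The SMAD3 to SMAD2 ratio was 3.24 and 3.20 in shControl and 5.55 and 7.44 in shSASH1. The level of SMAD2 relative to SMAD3 rests on the gene length used for TPM. The annotated exons of SMAD2 cover 36366 bases, and its longest transcript 34526 bases, against 9113 and 6247 bases for SMAD3. In rebuilt reads SMAD2 had 2150 and 2431 in shControl, more than the 1748 and 1949 of SMAD3. In shSASH1 it had 2413 and 1833, fewer than the 3357 and 3419 of SMAD3. The comparison between groups is within 1 gene and does not depend on that length.

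SMAD4 (chromosome 18, 51028394 to 51085045, plus strand), the common partner SMAD, was at 0.338 and 0.366 TPM in shControl and at 0.244 and 0.160 TPM in shSASH1. These rest on 26, 33, 21 and 11 rebuilt reads over 13123 exon bases. All 4 libraries were low, and 62.8% of the 26518 genes had a higher mean. The shSASH1 values lay under the shControl values, but without the filter on low values the log2 change was -0.17 ± 0.08 and did not pass (limma adjusted p = 0.211). The mean level of SMAD2 was 9.92 TPM and that of SMAD3 32.0 TPM in the same control cells.

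The genes beside SMAD4 showed how far the low values reached. ELAC1, a tRNA-processing nuclease that starts 60 kb before SMAD4, was at 0.301, 0.624, 0.345 and 0.240 TPM in shControl replicates 1 and 2 and shSASH1 replicates 1 and 2. It rests on 5 to 17 rebuilt reads. ME2, a mitochondrial malic enzyme that starts 150 kb before SMAD4, was at 24.0, 22.9, 19.7 and 17.1 TPM in the same order. MEX3C, an RNA-binding ubiquitin ligase that starts 146 kb after SMAD4, was at 34.3, 28.1, 39.0 and 44.9 TPM. SMAD4 and ELAC1 were thus both under 1 TPM in every library between neighbours at 17.1 to 44.9 TPM. MRO and DCC, farther out, were at most 0.0691 and 0.0232 TPM, and MAPK4 at most 0.921 TPM. RNA levels do not show which stretch of DNA is missing, and a deleted gene and a silent one cannot be told apart from them.

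PMEPA1 (chromosome 20, 57648392 to 57711536, minus strand), the TGF-beta-induced dampener that binds SMAD2 and SMAD3 and recruits NEDD4-type ubiquitin ligases, was at 54.8 and 57.6 TPM in shControl and at 53.3 and 51.6 TPM in shSASH1. The shSASH1 values lay just under the control values. The log2 change was -0.10 ± 0.07 (limma adjusted p = 0.303), and the direction held in all settings tried, between -0.20 and -0.06. Groups that do not overlap were common, at 73.6% of tested genes, and 7 of the 9 tested members had them. NKILA, an antisense transcript that shares 6.10% of the exon bases of PMEPA1, was at 2.21 to 3.27 TPM.

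By level in shControl the order was TGFB1 (65.1 ± 2.36 TPM), PMEPA1 (56.2 ± 1.95), TGFB2 (55.4 ± 3.75), SMAD3 (32.0 ± 1.12), TGFBR1 (25.5 ± 0.418), TGFBR2 (22.2 ± 0.291), SMAD2 (9.92 ± 0.252), TGFBR3 (2.53 ± 0.3328), TGFB3 (2.23 ± 0.338) and SMAD4 (0.352 ± 0.0201). PMEPA1 and TGFB2 changed places between the shControl libraries (54.8 against 58.1 TPM in replicate 1, 57.6 against 52.8 TPM in replicate 2). TGFBR3 lay slightly above TGFB3 in both (2.76 against 2.46 TPM and 2.29 against 1.99 TPM). In shSASH1 the order was TGFB2 (118 ± 7.22), SMAD3 (64.0 ± 11.03), PMEPA1 (52.5 ± 1.24), TGFBR1 (46.7 ± 3.12), TGFB1 (40.6 ± 15.6), TGFBR2 (23.4 ± 3.34), SMAD2 (9.88 ± 0.335), TGFBR3 (3.53 ± 0.0126), TGFB3 (0.765 ± 0.292) and SMAD4 (0.202 ± 0.0592). There TGFB1 could not be placed against PMEPA1 or TGFBR1, given the gap between its libraries. In both groups the place of SMAD2 rests on the gene length used for TPM, as stated above. So does the close order of TGFBR3 and TGFB3 in shControl. The exons of TGFB3 cover 4914 bases and its longest transcript 2708 bases, against 8705 and 6465 bases for TGFBR3.

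**Figure D3:**
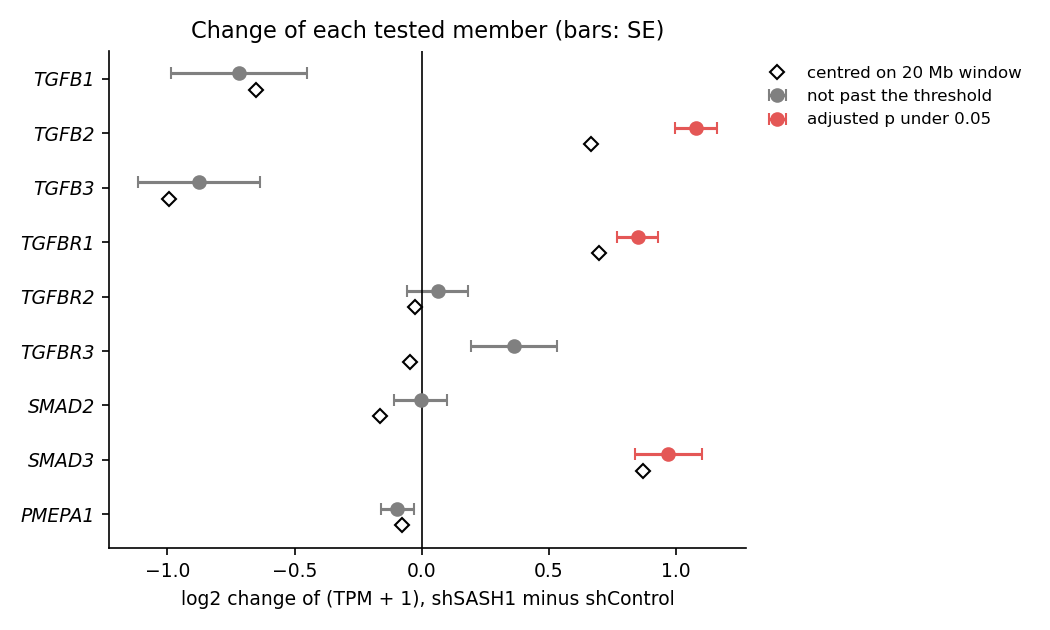
Log2 change of (TPM + 1), shSASH1 minus shControl, for the 9 tested genes, with limma standard errors as bars and open diamonds for the change after centring on 20 Mb chromosome windows. TGFB2, TGFBR1 and SMAD3 (red) passed the threshold, and their diamonds lie at 0.66, 0.70 and 0.87.

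The median change between the groups differed among chromosome windows, so the members were set beside their neighbours. Only the median of each window was taken, with no test. The 20 Mb window of TGFB2 held 135 tested genes with a median shift of 0.41 log2 units, and centring on it left TGFB2 at 0.66. TGFB2 passed before and after centring. TGFBR3 lies in another shifted window of chromosome 1 (74 genes, 0.41) and was at -0.047 after centring. The windows of TGFBR1 (97 genes) and SMAD3 (150 genes) had medians of 0.15 and 0.10, and centring left them at 0.70 and 0.87. Of all tested genes, 18.8% rose and 13.3% fell. Of the 6 tested genes among the 10 nearest protein-coding neighbours of TGFB2, 3 rose and 0 fell, with changes of 0.11 to 0.54. They were GPATCH2 (0.52), LYPLAL1 (0.45) and BPNT1 (0.54), all smaller than TGFB2 itself.

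Around TGFBR1, 4 of 8 tested neighbours rose and 0 fell, against 18.8% and 13.3% of all tested genes. COL15A1, a collagen of the basement membrane zone that starts 161 kb before TGFBR1, rose by 2.25 log2 units from 0.538 and 0.285 TPM to 6.43 and 4.99 TPM (limma adjusted p = 0.00543). GALNT12, a glycosyltransferase, rose by 1.61, ANKS6 by 0.76 and the glycosyltransferase ALG2 by 0.58, while STX17 was at 0.00 and ERP44 at -0.38 without passing. TGFBR1 thus sat in a run of 5 adjacent genes, from ANKS6 to ALG2, that each rose. Around SMAD3, none of 8 tested neighbours passed in limma, with changes from -0.09 to 0.32, while SMAD3 was at 0.97. Of the 8, 3 had an unadjusted limma p under 0.05 and 0 were called by limma-voom. The nearest tested neighbour on each side was the inhibitory SMAD6 (-0.03) before SMAD3 and AAGAB (0.21) after it. Around TGFB1, 0 of 6 rose and 3 fell, with CYP2S1 at -1.29, B9D2 at -1.02 and CCDC97 at -0.42.

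**Figure D4:**
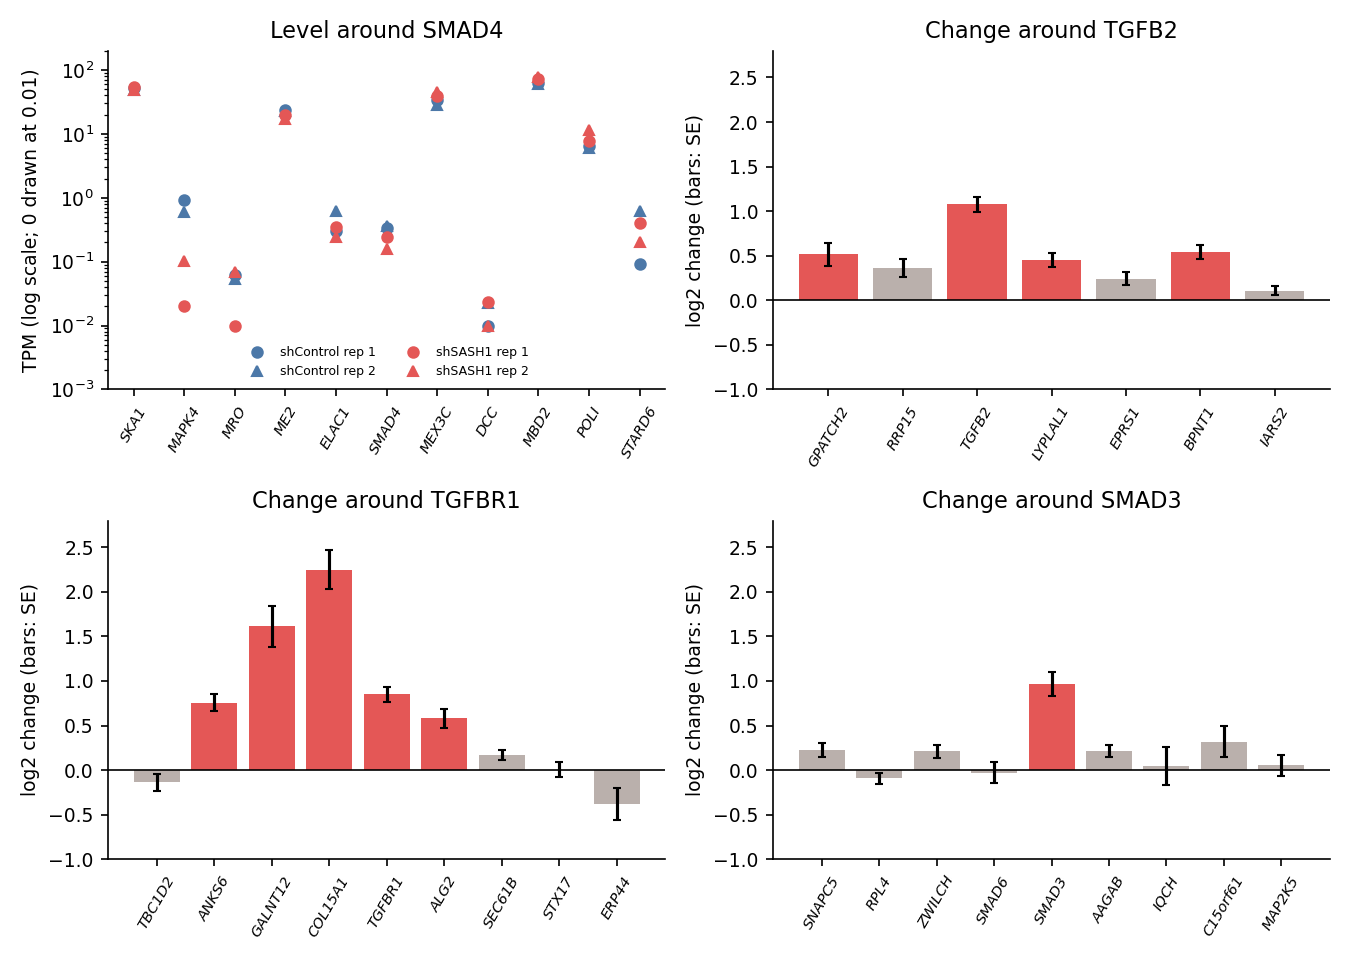
Level (TPM, log axis, 0 drawn at 0.01) of SMAD4 and its 10 nearest protein-coding genes in the 4 libraries, and log2 change with standard error for the tested genes around TGFB2, TGFBR1 and SMAD3, in chromosome order, with red bars for genes past the threshold. SMAD4 and ELAC1 are low between ME2 and MEX3C, and SMAD3 is the only called gene in its panel.

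TGFB2, the called member of largest log2(TPM + 1) change in the reported test, was compared with the 10506 other protein-coding genes of at least 5 TPM for likeness over the 4 libraries. By root-mean-square difference of centred log2(TPM + 1), the 3 most alike were the kinase ABL2 (0.0268), the phosphatase PTPN14 (0.0339) and SYTL4 (0.0363). All 3 lie in chromosome windows with a raised median shift, 0.41 for ABL2, 0.41 for PTPN14 and 0.65 for SYTL4. PTPN14 shares the window of TGFB2. ABL2 was at 20.8 and 19.7 TPM in shControl and at 45.8 and 43.1 TPM in shSASH1. With 4 libraries such likeness is common: 582 of those genes had a Pearson correlation with TGFB2 of at least 0.99.

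The other genes of the pathway were read from lists by role, and 6 of 13 tested latency and activation genes rose and 1 fell (median 0.36, against 0.06 over all tested genes, of which 18.8% rose and 13.3% fell). That count was 3 higher and 2 lower after quantile normalization, and 3 higher and 1 lower without a filter or without the variance trend. ITGB6, the epithelial integrin subunit that releases latent TGFB1 and TGFB3, was at 45.8 and 46.9 TPM in shControl and at 108 and 142 TPM in shSASH1 (log2 change 1.40 ± 0.14, limma adjusted p = 0.00571). ITGB8, another subunit that releases latent TGF-beta, fell from 18.3 and 17.4 to 10.5 and 7.86 TPM (-0.90). The latent TGF-beta binding protein LTBP4 rose from 10.01 and 10.6 to 18.8 and 39.0 TPM (1.32, limma adjusted p = 0.0479), with a wide gap between the shSASH1 libraries. It did not pass in 4 of 15 other settings, among them no filter (adjusted p = 0.0830) and those without a shControl library. NRROS, a membrane anchor of latent TGF-beta, rose by 1.04 from 0.940 and 1.25 TPM. Its call was lost in 6 of 14 other settings, among them the replicate block (adjusted p = 0.0549) and those without a shControl library. LTBP1 and FURIN, the protease that cleaves the propeptide, were named after their values were seen. LTBP1 rose by 0.62, and FURIN was at -0.10 without passing.

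In the activin, nodal and GDF branch, which shares SMAD2 and SMAD3, 1 of 11 tested genes rose and 1 fell (median -0.14). By limma-voom on rebuilt reads 2 rose and 3 fell. Over all tested genes 18.8% rose and 13.3% fell. INHA, the inhibin alpha subunit that opposes activin, rose from 5.32 and 3.29 to 12.2 and 14.2 TPM (1.45), and FSTL3, an activin antagonist, fell from 11.6 and 12.7 to 5.38 and 5.79 TPM (-0.995). Of 8 tested BMP-type receptors and SMADs, 3 rose and 1 fell (median 0.31). That count was 4 higher and 1 lower by limma-voom or with a weight per group, and 2 higher and 1 lower with a filter at 5 TPM. Endoglin (ENG), an accessory receptor, rose by 1.22, the decoy receptor BAMBI by 0.94 and BMPR1B by 0.89. SMAD1, a BMP-branch transducer, fell from 37.3 and 35.4 to 16.9 and 19.6 TPM (-0.96, limma adjusted p = 0.00605). Its relative SMAD5, named after its values were seen, was at 36.0 and 33.8 TPM in shControl and at 42.6 and 55.9 TPM in shSASH1. The groups of SMAD5 did not overlap, and its log2 change of 0.47 did not pass (limma adjusted p = 0.0688).

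Of 19 tested inhibitory SMADs, corepressors and ubiquitin regulators, 7 rose and 2 fell (median 0.15), against 18.8% and 13.3% of all tested genes. That count was 4 higher and 0 lower after centring on windows, and 4 higher and 2 lower after quantile normalization or the length and GC correction. LDLRAD4, the close relative of PMEPA1, rose from 0.824 and 0.956 to 4.46 and 5.39 TPM (1.65, limma adjusted p = 0.00701), while PMEPA1 itself was at -0.10. FKBP1A, which binds TGFBR1 and keeps it inactive, fell from 441 and 443 to 277 and 256 TPM (-0.73), and was at -0.24 and no longer past the threshold after centring on its window (adjusted p = 0.0844). NEDD4L, a ubiquitin ligase of phosphorylated SMADs, rose by 0.71. Its call was lost in 7 of 15 other settings, among them quantile normalization (adjusted p = 0.0596) and those without a shControl library. UCHL5 rose by 0.56 and was at -0.10 after centring on its window. The inhibitory SMADs, named after their values were seen, did not pass: SMAD7 was at 9.52 and 10.7 TPM in shControl and at 9.51 and 11.1 TPM in shSASH1 (0.03), and SMAD6 was at -0.03.

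Of 15 tested SMAD partners and anchors, 5 rose and 1 fell (median 0.15), against 18.8% and 13.3% of all tested genes. The excess of higher genes depended on the scaling, with 3 higher and 3 lower after quantile normalization and 4 higher and 3 lower after the length and GC correction or by limma-voom. It was 3 higher and 1 lower without the variance trend or with the replicate block. RUNX3, a SMAD3-binding transcription factor, rose from 30.6 and 28.5 to 63.4 and 52.4 TPM (0.94), and RUNX2 fell from 5.62 and 4.75 to 2.57 and 2.07 TPM (-0.90), but did not pass without a filter (adjusted p = 0.0514). The importin TNPO1 rose by 0.58 and the Mediator subunit MED15 by 0.38. In the non-SMAD branch 3 of 12 rose and 1 fell (median 0.11), with ROCK2 at 0.42, the p38 kinase MAPK14 at 0.39, DAXX at 0.29 and TAB3 at -0.35. After centring on windows 1 of the 12 rose and 0 fell: none of the last 3 passed, with TAB3 at 0.18. ROCK2 did not pass after the length and GC correction (adjusted p = 0.0588). DAXX lost its call in 8 of 15 other settings, those without a shControl library included. TAB3 lost its call in 6 and turned sign in 1.

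Of 24 tested transcripts that TGF-beta often induces, 11 rose and 3 fell (median 0.59), against 18.8% and 13.3% of all tested genes. SKIL, SMAD7, LTBP2, THBS1, LDLRAD4 and ITGB6 stand in this list and in another, and the lists were chosen with earlier results of these data known, so the counts are a description. NEDD9, an adhesion scaffold, rose from 5.13 and 5.13 to 67.7 and 80.9 TPM (3.61), TSPAN2 rose by 2.11 and LDLRAD4 by 1.65, and the collagen COL4A1 fell from 4.33 and 4.004 to 0.0831 and 0.221 TPM (-2.17). Among textbook direct targets of the SMADs, SMAD7 and PMEPA1 did not pass and SKIL rose by 0.40 (limma adjusted p = 0.0461). SKIL was named after its values were seen. With genes centred on their windows 7 of the 24 rose and 3 fell, and with a filter at 5 TPM, which tests fewer of them, 10 rose and 0 fell. Of 6 transcripts that TGF-beta often represses, 2 rose and 2 fell: ID1 (-2.07) and ID2 (-1.39) were lower, and ID3 (0.91) and CDC25A (0.43) were higher.

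**Figure D5:**
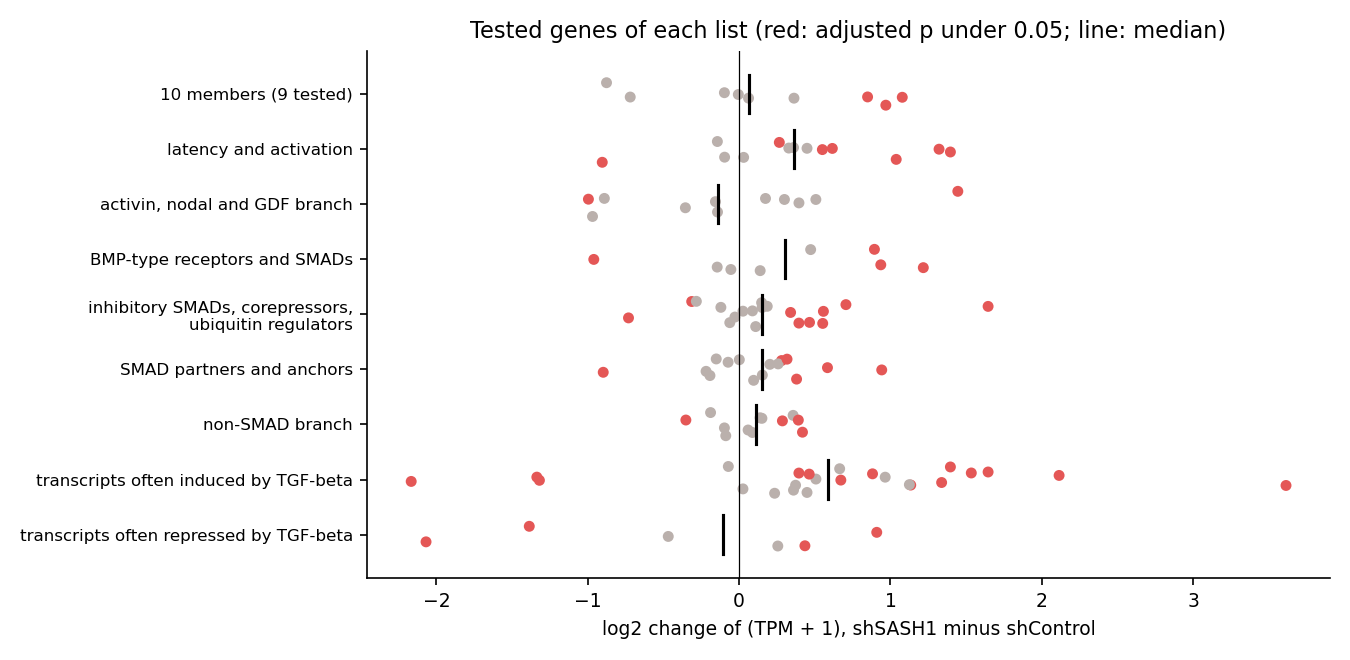
Log2 change of (TPM + 1), shSASH1 minus shControl, of the tested genes of the 9 lists, with red points for genes past the threshold and a black line at each list's median. The medians run from -0.14 in the activin, nodal and GDF list to 0.59 in the list of often induced transcripts, and each list holds genes on both sides of 0.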

How the data were processed

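Total RNA of MDA-MB-468 cells was isolated with TRIzol and made into libraries with an NEBNext kit, per the labels' protocols. The authors deposited TPM for Ensembl genes. The submitters' processing notes name STAR, DESeq2 and hg38, with no roles. How reads were counted, over which gene lengths and with what strand setting is not given in the sources used here. TPM is defined with a fixed total per library, so abundant transcripts that rise push others down. The deposited columns summed to 924683 and 926711 in shControl and to 922024 and 910830 in shSASH1. They were not rescaled in the reported test. TPM keeps no depth. Reads were therefore rebuilt from TPM and exon-union length (GENCODE 29, hg38, 1-based coordinates). Of values up to 20 reads, 89.0% to 89.5% came within 0.05 of a whole number, so rebuilt reads are estimates. All 26518 identifiers were in GENCODE 29.

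The 14458 genes averaging 1 TPM or more were fitted on log2(TPM + 1) by limma 3.58.1 under R 4.3.3, with a variance trend, no block, two-sided, Benjamini-Hochberg adjusted p under 0.05 over all tested genes. The procedure was run on simulated data with the same spread in both groups, unlike these libraries, and no support is drawn from it. Other settings were a pseudocount of 0.1, no filter or 5 TPM, quantile and median-of-ratios scaling, a length and GC correction, no trend, a replicate block, each library left out, a weight per group, limma-voom on rebuilt reads and centring on 20 Mb windows with at least 20 genes. The members, lists and settings were chosen with earlier results of these data known. Named genes were the 10 members, SASH1, up to 4 called genes of largest change per list, 5 neighbours on each side of a member, and the 3 genes most like the called member of largest change. Marker genes, transcripts that overlap a member and genes stated as named after their values were seen came in addition. Python 3.11.15 with pandas 2.3.3, numpy 2.4.6 and matplotlib 3.10.9 was used for tables and plots. The result of 1 list gene is not reported here.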

Additional observations from a re-analysis of the deposited data

How the results depend on the processing

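The rise of TGFB2 ranged from 0.66 to 1.15 over the settings, that of TGFBR1 from 0.68 to 0.92 and that of SMAD3 from 0.80 to 1.14. All 3 passed in every setting that kept all libraries. Leaving out each library in turn gave 0 to 5 members past the threshold, 0 to 3 higher and 0 to 2 lower, and 0 to 7728 genes in all (0 to 4543 higher, 0 to 3185 lower). The 0 arose without either shControl library, where the spread comes from the wider shSASH1 pair and the lone sample is assumed to vary like it; 3446 and 3326 genes had an unadjusted limma p under 0.05 there. Without either shSASH1 library the spread comes from the closer shControl pair, and calls made there are not relied on. Limma-voom on rebuilt reads gave 5 members, with 2 lower. Quantile normalization, median-of-ratios scaling, the length and GC correction, no variance trend, the weights per group and centring on windows each gave 1 lower member, against 0 in the reported test. That member was TGFB1 with the weights per group (-0.72, adjusted p = 0.0482) and TGFB3 in the other 5. TGFBR2 turned sign with quantile normalization (-0.025), the length and GC correction (-0.037) and centring (-0.025). TGFBR3 went from 0.36 to -0.047 with centring, its window having a median shift of 0.41. With each library left out in turn, TGFBR2 ranged from -0.078 to 0.20 and SMAD2 from -0.036 to 0.026. SMAD2 moved further with the length and GC correction (-0.17) and with centring (-0.16), and passed in neither. With centring, UCHL5 was at -0.10 and TAB3 at 0.18. Of all calls 58.6% were higher, against 48.4% after quantile normalization (2280 higher, 2434 lower), and no scaling moved the median of all genes by over 0.1. The replicate block left 3 members called and 3929 genes in all. Libraries with the same number did not deviate together (r = -0.03 across genes), so the numbers are not taken as pairs.

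Precision is limited by 2 libraries a group, and for TGFB3 and SMAD4 by 11 to 71 rebuilt reads.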
